A study of Mus musculus with 42 samples.

Results

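Cultured colonic epithelium was set against goblet cells taken straight from the colon. The comparison used 5 of the 42 RNA-seq libraries of a mouse study of how Gli1+ stromal cells act on the colonic epithelium. On one side were 3 control libraries of wild-type (WT) colonic organoids (replicates 1, 2 and 4), epithelial spheres grown from crypts in Matrigel, labelled as 12 h without interleukin; the study describes its organoids as distal colon, while the sample labels say colonic. On the other side were 2 libraries of Muc2-mCherry+ cells from the distal colon of GWTM2 mice, which carry Gli1CreERT2 and Muc2-mCherry and have no floxed Smad4 or Alk3 allele, collected at day 30 after tamoxifen. Muc2-mCherry marks cells in which the Muc2 reporter is active, and Gli1CreERT2 acts in Gli1+ stromal cells, so the sorted cells are labelled WT although their mice carried Cre and received tamoxifen. The study used mice of both sexes aged 2 to 4 months, and the sources used here do not say whether a library is 1 mouse or several, or 1 organoid line or several. P-values therefore measure only the spread between these libraries, which may be technical in part, although Xist reads show material of more than 1 mouse in each group.

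The organoid medium held EGF (50 ng/ml), Noggin (100 ng/ml), R-spondin1 (500 ng/ml), 30% Wnt3a-conditioned medium and CHIR (2.5 μM). Wnt signals, R-spondin and CHIR, an inhibitor of GSK3, keep crypt base cells dividing, and Noggin blocks BMP, which otherwise promotes maturation of the upper crypt. In the colon, goblet cells arise when Atoh1 is released from Notch repression; Spdef and Gfi1 then direct their maturation, and the mature cell packs heavily glycosylated Muc2 into granules together with Fcgbp, Clca1, Zg16 and Tff3. Whole organoids hold every epithelial type present in the culture, while the sorted population was chosen for the Muc2 reporter. Cell composition, culture, the sort and the separate experiments all differ between the groups and cannot be told apart, and in bulk RNA fewer cells of a type and less RNA per cell cannot be told apart either.

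Each library held 15989351 to 17648682 reads on named genes, and levels are given as reads per 1000000 (RPM). The limit that a count of 0 allows, 3 reads, corresponded to 0.170 to 0.188 RPM. Such limits cover counting error only. Genes that mark epithelium summed to 10100 to 13190 RPM in all 5 libraries. Most markers of other cell types have no row in these tables, so their sums cover only the rows present. Fibroblast markers, with 2 to 4 of 10 present, summed to 9.83 to 23.2, against 45890 and 55950 over all 10 in Gli1+ stromal cells of the same series. Macrophage markers, with 2 to 6 of 10 present, came to 4.38 to 12.1, and T cell markers, with 2 of 12, to 2.10 to 4.92. No neutrophil marker has an organoid row, and the 2 of 7 with a goblet row summed to 1.64 and 0 in goblet libraries 1 and 2. All epithelial markers had a row and reads in every library. Each group held libraries of both sexes: Xist had 6, 6 and 32621 reads in organoids 1, 2 and 4 and 21048 and 13 in goblet libraries 1 and 2.

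One label could not be taken at face value. Organoid library 2 at 12 h had exactly the reads of control library 1 at 72 h (0 of 14364 shared genes differed), and organoid library 4 at 12 h had exactly those of control library 4 at 72 h. The culture time of these 2 libraries is therefore unsettled, and only organoid library 1 has no such copy. Organoid library 4 also differed little from control library 2 at 72 h (chi-square per degree of freedom 3.3). The 3 organoid libraries differed from each other well beyond counting noise (chi-square per degree of freedom 26.2 to 67.6), as did both goblet libraries (85.3), so all 5 were kept as separate samples and leading counts are also given with organoid library 1 alone against the goblet cells, where the spread rests on the goblet pair.

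Of 13713 genes with a row in both tables, 12311 had a mean of at least 1 RPM and were tested with limma. A gene was called when its Benjamini-Hochberg adjusted p was below 0.05 and its log2 difference was at least 1 in size. On this rule 1198 genes (9.73%) were called, 508 higher in organoids (4.13%) and 690 lower (5.60%). The groups did not overlap for 6574 genes (53.4%), and the median difference over all genes tested was 0.09. Counts for the gene lists below are to be read against these shares over all genes. Gene lists were chosen with earlier results of these data known, so part of a gap to these shares may come from that choice. Log2 differences below, the first value in each bracket, are organoids minus goblet cells on log2(RPM + 1), with SE, for n = 3 organoid and n = 2 goblet libraries. This scale understates the change of genes with few reads. Levels are given as organoids 1, 2 and 4 against goblet cells 1 and 2. Where a call did not hold with 1 library left out, the library is named with the log2 difference found without it. With organoid library 1 alone 209 genes were called, 76 higher and 133 lower. All 1184 of the 1198 genes that could still be tested there kept the sign of their difference. The 1198 had been chosen with these same libraries included, so this was nearly fixed in advance and is no support for the calls.

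**Figure D1:**
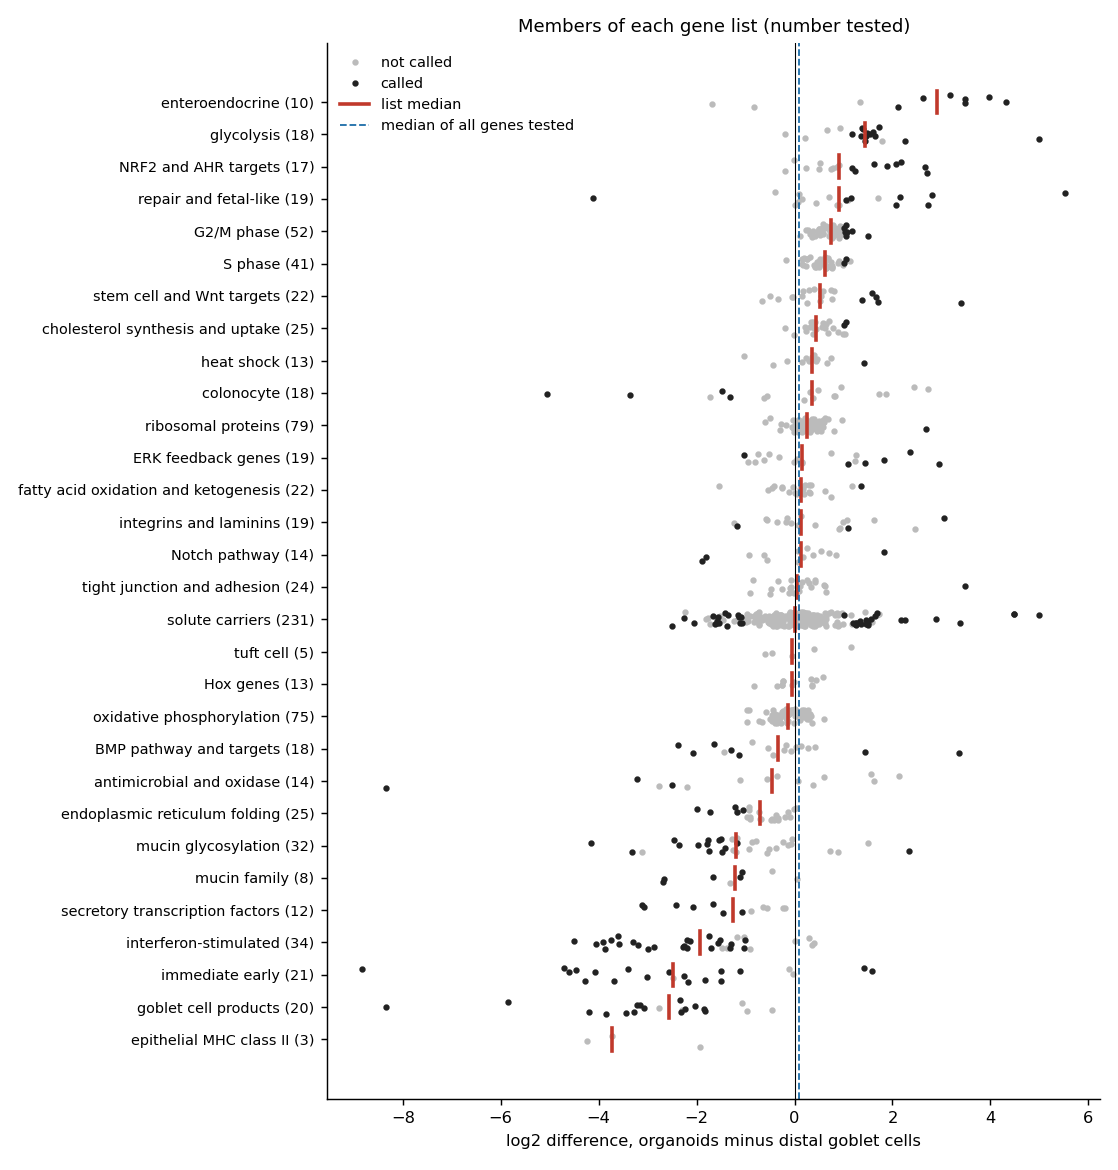
Log2 difference (organoids minus distal goblet cells, x axis) of every tested member of each gene list (y axis, number tested in brackets). Black points were called, grey points were not, red bars are list medians, and the dashed blue line is the median of all genes tested. Goblet cell products, immediate early and interferon-stimulated genes lie to the left, and enteroendocrine and glycolysis genes lie to the right.

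Goblet cell secretory products were lower in organoids. Of the 20 products tested, 15 were lower, 0 were higher and 5 were not called, against 5.60% called lower over all genes, and the list median was -2.55. With any 1 library left out 14 were called lower, and with organoid library 1 alone 8 were. The exception among the defining products was Muc2 itself (chr7:141690340-141754693), the gel-forming mucin whose reporter was used for the sort. Muc2 was at 2166, 3067 and 3442 RPM in organoids 1, 2 and 4 and at 2429 and 6269.7 in goblet cells 1 and 2 (log2 difference -0.46 ± 0.42, limma adjusted p = 0.48). The groups overlapped, with goblet library 1 below organoid libraries 2 and 4.

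For 17 of the 20 products the groups did not overlap, against 53.4% of all genes tested. Muc2, Reg4 and Guca2a were the others. Fcgbp (chr7:28071236-28120862), a mucus-bound IgG Fc-binding protein, was at 1963, 1732 and 1751 RPM in organoids and 11058 and 27740.0 in goblet cells (-3.27 ± 0.39, limma adjusted p = 0.0047). Clca1, a mucus-processing metalloprotease, was at 609, 396 and 735 against 6054 and 17736 (-4.20 ± 0.48, adjusted p = 0.0043). For both genes goblet library 2 was more than 2 times library 1, yet every organoid library was below both. Zg16, a lectin that binds Gram-positive bacteria, was at 731, 836 and 471 against 8773 and 5830.5 (-3.44 ± 0.30, adjusted p = 0.0023), and the trefoil peptide Tff3 at 374, 352 and 456 against 1954 and 1014 (-1.84 ± 0.29, adjusted p = 0.011). Klk1, a kallikrein protease, was at 164, 88 and 159.8 against 1785 and 2072 (-3.85).

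Retnlb (chr16:48816856-48818892), the antibacterial resistin-like molecule beta of colonic goblet cells, was low but detected in culture. It was at 0.29, 3.52 and 4.4 RPM in organoids and 1562 and 666 in goblet cells (-8.34 ± 0.66, limma adjusted p = 0.0018). The bicarbonate-permeable channel Best2, at 6.55, 0.47 and 1.83 against 303 and 109, followed the same order (-5.86 ± 0.72, adjusted p = 0.0055). Itln1, an intelectin, was at 0.695, 0.881 and 2.29 against 6.18 and 56 (-3.21 ± 0.82, adjusted p = 0.043). Besides Muc2, the products not called were Ang4 (-2.77), Nxpe2 (-2.29), Guca2a (-1.08) and Reg4 (-0.97). When 1 library was left out, calls were lost for Itln1 without organoid 1 (-3.02), organoid 2 (-3.10), organoid 4 (-3.50) or goblet 2 (-1.71).

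**Figure D2:**
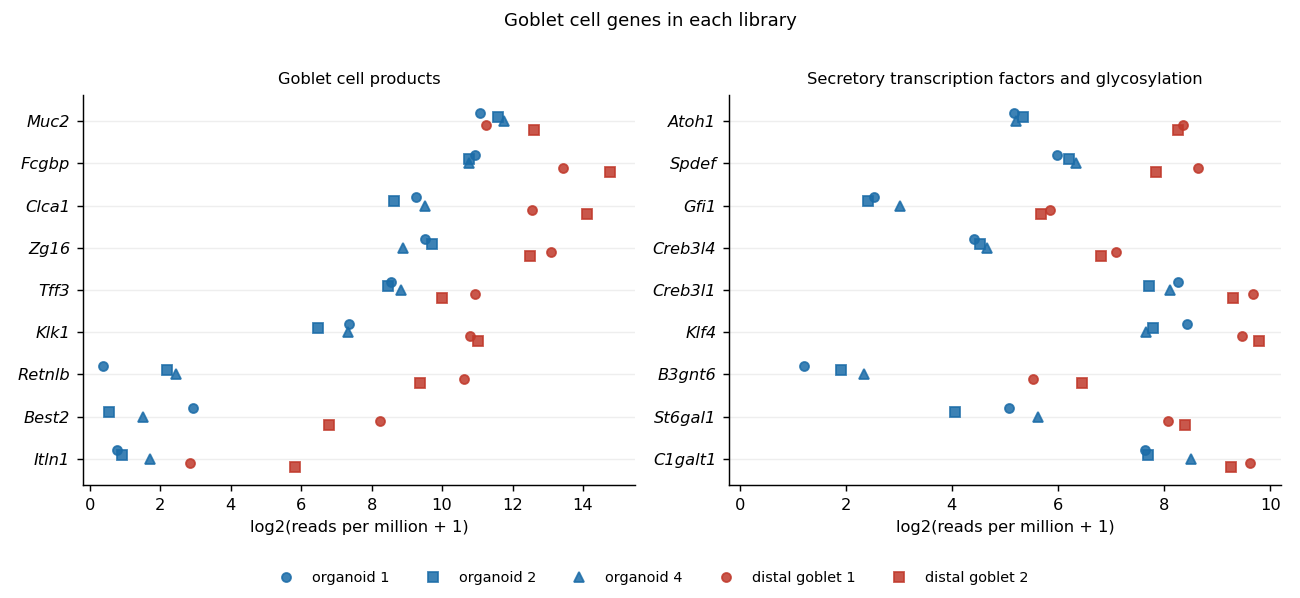
Level as log2(RPM + 1) of 9 goblet cell products (left) and of secretory transcription factors and glycosylation enzymes (right) in each library, with organoids in blue and distal goblet cells in red. Muc2 is the only gene shown on which the groups overlap, and Retnlb and Best2 show the widest gaps.

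The regulators of the secretory lineage were called lower in organoids as well, for 58.3% of those tested against 5.60% over all genes. Of 12 tested, 7 were lower and 0 higher (median -1.26), with 5 to 7 lower when 1 library was left out and 3 with organoid library 1 alone. Atoh1, the factor that commits crypt cells to a secretory fate, was at 35, 39.7 and 36.1 RPM in organoids and 328 and 306 in goblet cells (-3.07 ± 0.13, limma adjusted p = 0.00043). Replicates were tight on both sides. Spdef, which drives goblet maturation, was at 62.2, 72.6 and 80.3 against 400.1 and 231 (-2.08 ± 0.25, adjusted p = 0.0051), and Gfi1, which acts downstream of Atoh1, at 4.75, 4.35 and 7.09 against 56.8 and 50.2 (-3.11 ± 0.24, adjusted p = 0.0016). Creb3l4 (-2.41), Klf4 (-1.66), Creb3l1 (-1.46) and Foxa3 (-1.07) were lower too. Foxa1 (-0.20), Foxa2 (-0.65) and the secretory stress factor Xbp1 (-0.88) were not called. Leaving out 1 library removed the calls for Klf4 without goblet 2 (-1.51), Creb3l1 without goblet 1 (-1.27) and Foxa3 without organoid 1 (-1.14), organoid 4 (-0.96) or goblet 1 (-0.79).

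Among Notch pathway genes, the ligands Dll1 and Dll4, carried by secretory precursors, were lower in organoids. Dll1 was at 4.93, 7.16 and 10.9 RPM against 28.6 and 31.5 (-1.90 ± 0.31, limma adjusted p = 0.013), and Dll4 at 10.2, 9.51 and 12.7 against 51.6 and 30.8 (-1.80 ± 0.26, adjusted p = 0.0096). The receptor Notch2 was higher, at 17.7, 19.5 and 24.1 against 3.85 and 6.38 (1.83 ± 0.26, adjusted p = 0.0082). Hes1, the Notch target that represses Atoh1, was at 74.1, 79.5 and 65.6 against 55.7 and 56.1 (0.38 ± 0.15, adjusted p = 0.12) and was not called. Of the 14 genes tested 1 was higher and 2 were lower, and dropping either goblet library left 1 lower. With 1 library fewer, calls were no longer made for Dll1 without goblet 1 (-1.97) or goblet 2 (-1.83).

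The rest of the mucin family and the machinery that decorates mucins followed the products, with a smaller shift. Of 8 mucin genes tested, 5 were lower (median -1.21), and 3 without goblet library 1. The transmembrane mucin Muc4 was at 153, 107 and 225 RPM against 1046 and 942 (-2.67 ± 0.30, limma adjusted p = 0.0039). Muc13, another transmembrane mucin, was at 919, 682 and 915 against 2185 and 1416 (-1.08 ± 0.24, adjusted p = 0.031). Muc3a (-1.11), Muc6 (-2.68) and Muc20 (-1.65) were also lower, Muc6 and Muc20 from at most 11.9 RPM in any library. Muc1 overlapped between groups, at 5.5, 1.12 and 7.72 against 22.8 and 5.38 (-1.32 ± 0.75, adjusted p = 0.25). Muc3a and the row named Muc3 may share reads, and their split is uncertain. Calls that did not hold with 1 library fewer were those for Muc13 without organoid 1 (-1.15), organoid 2 (-0.94), organoid 4 (-1.15) or goblet 1 (-0.77) and Muc20 without goblet 1 (-1.66) or goblet 2 (-1.65).

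Of 32 glycosylation genes, 13 were lower and 1 was higher (median -1.19), and 6 were lower without goblet library 1. B3gnt6, the core 3 synthase of colonic mucin glycans, was at 1.33, 2.76 and 4.06 RPM against 45 and 86.5 (-4.16 ± 0.41, limma adjusted p = 0.003). The core 1 synthase C1galt1 was at 199, 206 and 363 against 789.9 and 615 (-1.50 ± 0.29, adjusted p = 0.02). St6gal1 (-3.31), the initiating transferase Galnt5 (-2.47) and the fucosyltransferases Fut4 (-2.35) and Fut2 (-1.96) were lower. Gcnt4 (2.34) was the member that was higher. St6galnac1 stood near 0 in 4 libraries and at 14.9 in organoid library 4, and B4galnt2 overlapped (adjusted p = 0.8). On leaving out 1 library, the threshold was no longer passed by C1galt1 without organoid 1 (-1.35), goblet 1 (-1.32) or goblet 2 (-1.68) and Fut4 without organoid 1 (-2.38), goblet 1 (-2.18) or goblet 2 (-2.53).

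Protein folding in the endoplasmic reticulum moved less. Of 25 genes tested 5 were lower and 20 not called (median -0.70), with 3 lower without goblet library 1 and 8 without goblet library 2. The goblet-restricted stress sensor Ern2 (IRE1β) was at 151, 131 and 138 RPM against 479.8 and 447 (-1.72 ± 0.13, limma adjusted p = 0.0016). Pdia5 (-1.98) and Pdia3 (-1.18), both disulfide isomerases, and Herpud1 (-1.21) and Ern1 (-1.05) were the others. The chaperone Hspa5 was at 843, 739 and 753 against 1880.1 and 875 and was not called (adjusted p = 0.15). The threshold was also missed by Herpud1 without organoid 1 (-1.18), goblet 1 (-0.98) or goblet 2 (-1.44) and Ern1 without organoid 1 (-1.05), organoid 2 (-0.88), goblet 1 (-1.20) or goblet 2 (-0.90).

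Immediate early genes, which are transcribed within minutes of a stimulus, set the groups widely apart. Of 21 tested, 16 were lower and 2 higher in organoids, with a median of -2.49, against 5.60% called lower over all genes. Leaving out 1 library left 13 to 16 lower, and 8 were called with organoid library 1 alone. Fosb (chr7:19302696-19310051), an AP-1 subunit, was at 1.27, 0.94 and 0.514 RPM in organoids and 1081 and 677 in goblet cells (-8.83 ± 0.28, limma adjusted p = 0.00018). It was the largest decrease among the genes named by the rule. Fos was at 53.6, 73.5 and 40.4 against 1709 and 1069 (-4.61 ± 0.30, adjusted p = 0.0015), Jun at 51.5, 107 and 51.7 against 1128 and 649.7 (-3.68 ± 0.38, adjusted p = 0.0033), and the zinc finger factor Egr1 at 73.9, 77.3 and 61.4 against 858 and 668 (-3.41 ± 0.17, adjusted p = 0.00066).

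Klf2, at 0.869, 0.94 and 0.857 RPM in organoids and 62.5 and 37 in goblet cells (-4.70 ± 0.27), and the nuclear receptor Nr4a1, at 15.6, 9.22 and 13.8 against 449.7 and 201 (-4.47 ± 0.37), showed the same gap. Egr2 (-4.28), Atf3 (-4.08), Dusp1 (-3.02), Zfp36 (-2.56), Ier2 (-2.25) and Nr4a2 (-2.18) were lower too. Both members that were higher were Myc (1.58) and Ier3 (1.43); Myc also stands in the stem cell list. GWTM2 goblet cells of the proximal colon, from another table, held Fosb at 829 and 685 and Fos at 1447 and 1185 RPM. The Muc2-mCherry+ cells had been isolated from tissue, which the organoids had not, and the part of that handling in these levels was not tested. Of 13 heat shock genes tested, 0 were lower by limma, edgeR or DESeq2 and 1 at an unadjusted p under 0.05; 1, Hspa8 (1.41), was higher, and the inducible Hspa1a (adjusted p = 0.13) and Hspa1b (adjusted p = 0.81), which share reads, were not called. When 1 library was left out, calls were lost for Ier3 without organoid 1 (1.45), organoid 4 (1.35) or goblet 2 (0.92) and Hspa8 without organoid 1 (1.39) or goblet 2 (0.94).

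**Figure D3:**
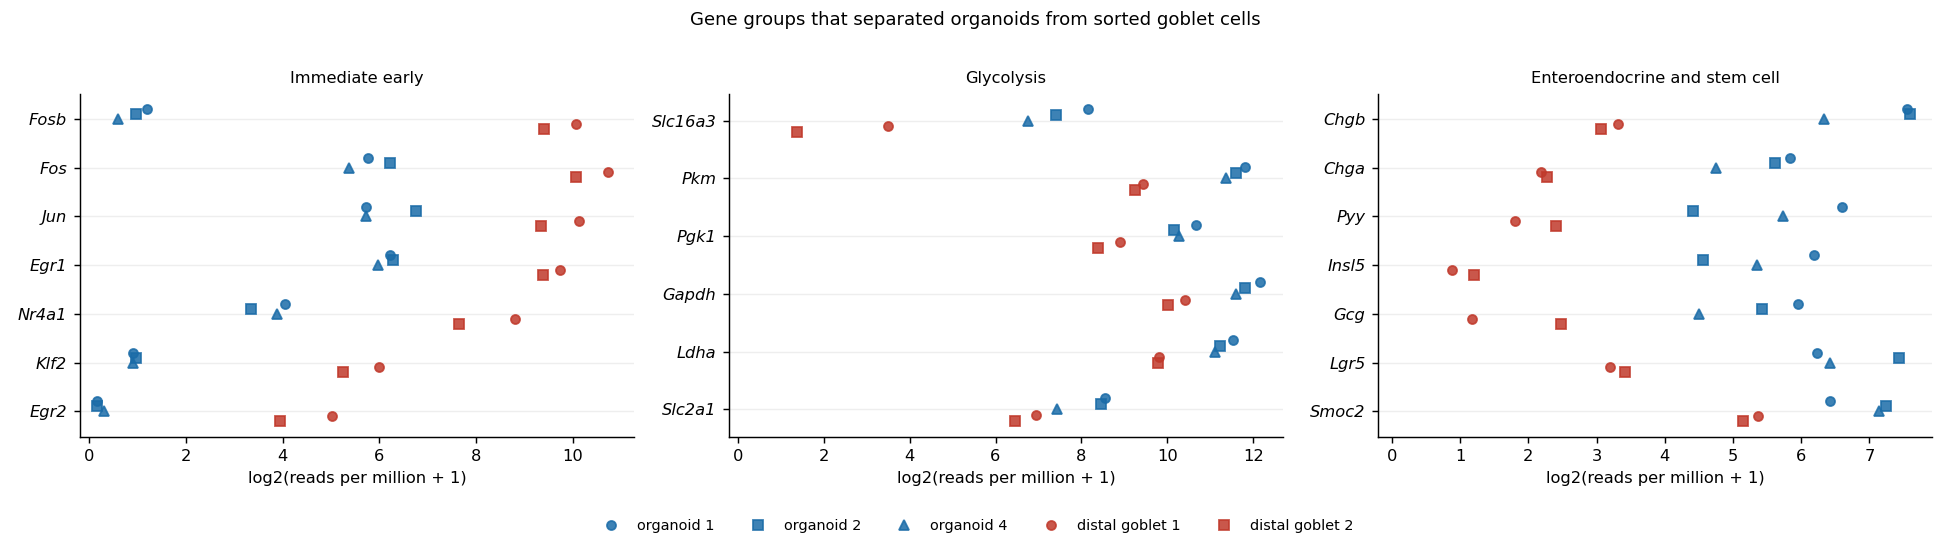
Level as log2(RPM + 1) of immediate early genes (left), glycolysis genes (middle) and enteroendocrine and stem cell genes (right) in each library, with organoids in blue and distal goblet cells in red. No gene shown overlaps between the groups, and the order is reversed between the left panel and the other two.

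Glycolysis genes were higher in organoids. Of 18 tested, 13 were higher and 0 lower, against 4.13% called higher over all genes, and the median was 1.45. Without goblet library 2 the number fell to 7, and with organoid library 1 alone it was 4. The pyruvate kinase Pkm was at 3579.6, 3102 and 2626 RPM in organoids and 685 and 607 in goblet cells (2.25 ± 0.19, limma adjusted p = 0.0022), the lactate dehydrogenase Ldha at 2939, 2406 and 2192 against 896 and 879 (1.49 ± 0.19, adjusted p = 0.006), and Pgk1 at 1613, 1143 and 1241 against 472 and 334 (1.73 ± 0.22, adjusted p = 0.0065). Gapdh (1.64) was also higher. Leaving out 1 library removed the calls for Gapdh without goblet 2 (1.44).

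Slc16a3 (MCT4), which exports lactate, had the largest increase of the list, at 285, 169 and 106 RPM against 10.3 and 1.63 (4.99 ± 0.65, limma adjusted p = 0.0065). The glucose transporter Slc2a1 was at 373, 349.7 and 172 against 121 and 86.9 (1.45 ± 0.35, adjusted p = 0.038), a call lost under TMM or DESeq2 scaling and with edgeR. Hexokinases Hk1 (0.67) and Hk2 (-0.19) were not called. By contrast 0 of 75 oxidative phosphorylation genes were called by limma, also at an unadjusted p under 0.05 (median -0.14), while edgeR called 1 lower and DESeq2 2, and of 22 fatty acid oxidation genes 1, the nuclear receptor Pparg (1.37), was higher. With 1 library fewer, calls were no longer made for Slc2a1 without organoid 1 (1.25), organoid 2 (1.30), goblet 1 (1.69) or goblet 2 (1.21) and Pparg without organoid 1 (1.35), goblet 1 (1.22) or goblet 2 (1.51).

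The promoters of these genes were searched for a short run of letters. The letters ACGTG, the core of the site bound by hypoxia-inducible and some other bHLH factors, stood on either strand in 13 of 30 windows of the glycolysis genes (43.3%), counting the 250 bases before each RefSeq start, and in 16.6% of all 32851 such windows. Of the 18 genes 10 held a match, including 6 of the 13 that were higher in organoids. The match was thus not common to all members, nor to all of those that were higher. For the called genes with the largest differences that hold it, the bases before the start on GRCm38.p6 are shown 5′ to 3′ with the match in capitals, both from the plus strand. Slc16a3 (chr11:120948817-120949066) held 2 matches and Pkm (chr9:59656977-59657226) 1.
Slc16a3: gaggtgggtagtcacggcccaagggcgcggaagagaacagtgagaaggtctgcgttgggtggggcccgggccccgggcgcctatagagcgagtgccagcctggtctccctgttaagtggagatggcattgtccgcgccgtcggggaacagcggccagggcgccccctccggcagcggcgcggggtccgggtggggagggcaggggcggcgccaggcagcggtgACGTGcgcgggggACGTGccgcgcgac
Pkm: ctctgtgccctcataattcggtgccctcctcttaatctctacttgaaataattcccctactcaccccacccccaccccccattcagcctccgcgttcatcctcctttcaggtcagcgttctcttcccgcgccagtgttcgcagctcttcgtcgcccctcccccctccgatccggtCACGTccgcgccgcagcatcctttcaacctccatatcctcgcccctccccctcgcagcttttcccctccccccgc
A match describes these letters and is not evidence that a factor binds there.

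Interferon-stimulated genes were lower in organoids, but the size of the gap differed between the goblet libraries. Of 34 tested, 24 were lower and 0 higher (median -1.93), against 5.60% called lower over all genes. The median was -1.76 without goblet library 1. The count depended on single libraries: 13 were lower without goblet library 1, 10 without organoid library 4, 6 without organoid library 1, and 2 with organoid library 1 alone. Zbp1, a nucleic acid sensor, was at 0.927, 1.06 and 1.54 RPM in organoids and 81.6 and 28.3 in goblet cells (-4.51 ± 0.43, limma adjusted p = 0.003).

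The goblet libraries differed from each other in several of these genes. Nlrc5, the activator of MHC class I genes, was at 0, 0.117 and 0.4 RPM in organoids and 60.7 and 5.07 in goblet cells (-4.06 ± 0.87, limma adjusted p = 0.028). The GTPase genes Igtp, at 1.22, 1.64 and 1.31 against 113 and 10.3 (-3.91), and Gbp7, at 1.16, 1.23 and 2.4 against 83.2 and 12.9 (-3.75), were also higher in goblet library 1 than in library 2. Isg15, a ubiquitin-like protein induced by type I interferon, had the opposite order within the goblet pair, at 0.927, 1.17 and 0.686 against 4.87 and 13.2 (-2.25 ± 0.40, adjusted p = 0.016). Both goblet libraries were above every organoid library for all 4 genes. Calls that did not hold with 1 library fewer were those for Nlrc5 without organoid 1 (-3.95) or organoid 4 (-4.19), Igtp without organoid 1 (-3.86) or organoid 4 (-3.89) and Gbp7 without organoid 1 (-3.63). On leaving out 1 library, the threshold was no longer passed by Isg15 without organoid 1 (-2.25) or goblet 2 (-1.61).

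GAAA, any 2 bases and GAAA again, the letters that make up the interferon-stimulated response element, stood on either strand in 16 of 35 promoter windows of the interferon list (45.7%) and in 2.98% of all 32851 windows. Of the 38 listed genes 27 had a RefSeq window, and 15 of these 27 held a match. Among the 24 genes called lower in organoids, 18 had a window, and 9 of those 18 held a match. The bases before the start of 2 such genes with the largest differences are shown in the same way, with 1 match in Igtp (chr11:58199306-58199555) and 2 overlapping matches in Gbp3 (chr3:142559794-142560043), where the letters run on the opposite strand; both windows are read from the plus strand.
Igtp: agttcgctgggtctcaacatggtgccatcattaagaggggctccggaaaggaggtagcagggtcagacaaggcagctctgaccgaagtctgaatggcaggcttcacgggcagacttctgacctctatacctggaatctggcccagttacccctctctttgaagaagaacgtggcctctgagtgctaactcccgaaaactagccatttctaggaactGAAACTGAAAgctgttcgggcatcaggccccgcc
Gbp3: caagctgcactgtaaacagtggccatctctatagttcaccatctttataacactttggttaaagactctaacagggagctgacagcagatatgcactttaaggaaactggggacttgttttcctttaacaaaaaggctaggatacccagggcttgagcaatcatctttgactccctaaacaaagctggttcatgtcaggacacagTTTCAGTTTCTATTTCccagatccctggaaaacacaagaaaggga
Gbp3 itself was at 0.174, 0.176 and 0.229 RPM in organoids and 34.3 and 7.5 in goblet cells (-3.86 ± 0.56, limma adjusted p = 0.009).

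The genes of MHC class II, which presents antigen to CD4+ T cells, showed the difference between the goblet libraries plainly. Of 8 genes listed, 3 could be tested and 0 were called by limma, although the median was -3.72; at an unadjusted p under 0.05 and with edgeR 2 were lower, and with DESeq2 3. Without goblet library 2 all 3 were called lower, and without goblet library 1 the median was -0.78. H2-Ab1 was at 1.33, 0.352 and 0.514 RPM in organoids and 237 and 3.25 in goblet cells (limma adjusted p = 0.095). Cd74, the invariant chain, has no row in the organoid table used; in another deposited table of the same organoid libraries it had 2, 2 and 5 reads, and it stood at 939 and 8.07 RPM in goblet cells 1 and 2. In proximal goblet cells Cd74 was at 244 and 3.4, H2-Aa at 30.2 and 0.693 and Igtp at 33.6 and 11.3, again higher in library 1. Both libraries numbered 1 had the Xist reads of a female and both numbered 2 did not, so sex and library number cannot be told apart there. B and plasma cell markers, with 2 of 9 present, summed to 0.623 and 0.625 RPM in distal goblet cells 1 and 2. Macrophage markers, with 6 of 10 present, came to 7.54 and 4.38 there. Dendritic cell markers were not examined, and the part of immune cells in the class II levels was not tested.

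**Figure D4:**
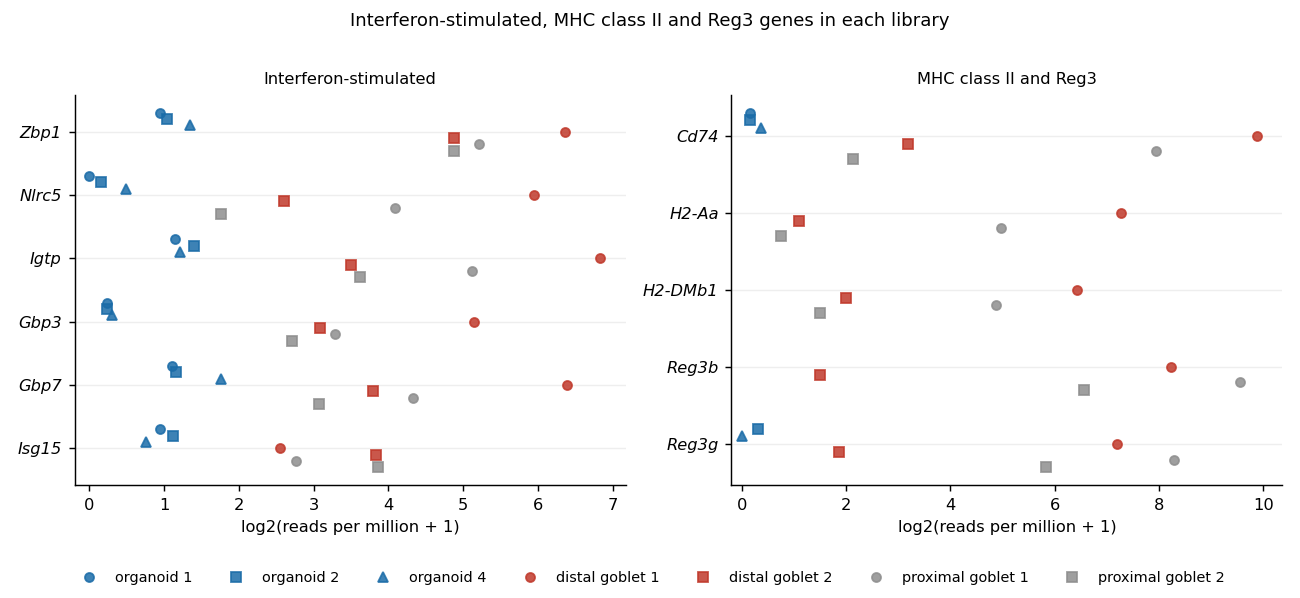
Level as log2(RPM + 1) of interferon-stimulated genes (left) and of MHC class II and Reg3 genes (right) in organoids (blue), distal goblet cells (red) and proximal goblet cells (grey, from another table). Goblet libraries 1 (circles) lie above libraries 2 (squares) of the same segment for every gene except Isg15, and genes with no row for a library have no point.

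Host defence genes were mostly not called. Of 14 tested, 3 were lower and 0 higher by limma or edgeR, with 1 lower when any organoid library was left out; DESeq2 called 4 lower and 2 higher, and at an unadjusted p under 0.05 these were 4 and 3. The 3 lower genes were Retnlb and Itln1, given above, and Duox2, an epithelial NADPH oxidase, at 56.9, 58.7 and 58.1 RPM against 763 and 145 (-2.51 ± 0.61, limma adjusted p = 0.038). Nox1, the other main colonic oxidase, was at 191, 169.8 and 349 against 124 and 46.2 (1.55 ± 0.46, adjusted p = 0.065). Pigr, the receptor that carries IgA into the lumen, was at 4630.3, 3909 and 4204 against 6840.2 and 5684 (adjusted p = 0.12). Reg3b, a lectin of the Reg3 family, has a row in the goblet table only, with 301 and 1.81 RPM in goblet cells 1 and 2, and Reg3g stood at 145 and 2.63. The threshold was also missed by Duox2 without organoid 1 (-2.49), organoid 2 (-2.51) or organoid 4 (-2.51).

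Enteroendocrine genes were higher in organoids, and the part of the sort in this difference was not tested. Of 21 listed genes only 10 could be tested, of which 7 were higher and 0 lower by limma or edgeR (median 2.90), 5 were higher with organoid library 1 alone, and 1 was lower with DESeq2 or at an unadjusted p under 0.05. The granins Chga, at 56.1, 48.2 and 25.9 RPM against 3.57 and 3.81 (3.17 ± 0.33, limma adjusted p = 0.0036), and Chgb, at 187, 192 and 79.3 against 8.95 and 7.38 (3.97 ± 0.39, adjusted p = 0.003), mark these cells. The hormone genes Insl5, at 71.6, 22.7 and 39.8 against 0.85 and 1.31 (4.32 ± 0.45, adjusted p = 0.0034), Pyy, at 95.8, 20.3 and 52.4 against 2.49 and 4.32 (3.47 ± 0.59, adjusted p = 0.015), and Gcg, at 61.2, 42.2 and 21.6 against 1.25 and 4.57 (3.47), gave the same order, as did Cck (2.63) and the factor Insm1 (2.10). Tuft cell genes gave no such difference: 0 of 5 tested were called by limma or edgeR and 1 was higher with DESeq2 or at an unadjusted p under 0.05, and Dclk1 was at 0.695, 3.58 and 2.11 against 0.737 and 1.75. When 1 library was left out, calls were lost for Pyy without goblet 1 (3.17) or goblet 2 (3.78) and Gcg without goblet 1 (2.82).

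Stem cell and Wnt target genes were higher in part. Of 22 tested, 5 were higher and 0 lower (median 0.53), with 3 higher without goblet library 1 and 1 with organoid library 1 alone. Lgr5, the R-spondin receptor of crypt base stem cells, was at 74.6, 173 and 84.6 RPM in organoids and 8.16 and 9.69 in goblet cells (3.39 ± 0.36, limma adjusted p = 0.0036). Smoc2, at 84.9, 150.3 and 139.9 against 40.3 and 34.6 (1.67), Mex3a (1.70), Myc (1.58) and Tcf7 (1.37) were also higher. Axin2, the feedback inhibitor of Wnt signalling, was at 45.9, 54.8 and 42.5 against 24.8 and 28.9; its adjusted p was 0.029 but its difference, 0.80 ± 0.18, was below the size asked for a call. Ascl2 (0.59), Ephb2 (0.53) and Sox9 (-0.33) were not called. Leaving out 1 library removed the calls for Smoc2 without goblet 1 (1.78) or goblet 2 (1.56) and Tcf7 without organoid 1 (1.43) or goblet 1 (1.15).

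Most cell cycle genes had small differences above 0 and were not called. Of 52 G2/M genes all 52 were above 0 (median 0.75), as were 7051 of all 12311 genes (median 0.09), and 7 were called higher, among them Cks1b (1.51), Psrc1 (1.18) and Kif23 (1.07); 1 was called without goblet library 2, 3 without organoid library 1 and 0 with organoid library 1 alone. TMM or DESeq2 scaling gave 2, and edgeR or DESeq2 gave 3, in each case without Kif23. Of 41 S phase genes 40 were above 0 (median 0.63), and 2, Cdc6 (1.06) and Tipin (1.01), were called; neither was under TMM or DESeq2 scaling or with edgeR. Ribosomal protein genes had a median of 0.25 with 1 of 79 called, Rpl23a (2.69), not called by edgeR and whose reads may be shared with processed pseudogenes. With 1 library fewer, calls were no longer made for Psrc1 without organoid 1 (1.17) or goblet 2 (0.98), Kif23 without organoid 1 (1.15) or goblet 2 (0.76) and Cdc6 without organoid 1 (1.17), organoid 2 (1.05), organoid 4 (0.95), goblet 1 (1.37) or goblet 2 (0.75). Calls that did not hold with 1 library fewer were those for Tipin without organoid 1 (1.12), organoid 2 (1.06), organoid 4 (0.85), goblet 1 (1.16) or goblet 2 (0.86) and Rpl23a without organoid 1 (2.55).

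Colonocyte genes gave an uneven picture. Of 18 tested, 0 were higher by limma, edgeR or DESeq2 and 4 lower by limma, while the median was 0.35, and 2 were higher at an unadjusted p under 0.05; without organoid library 1, 2 were lower, and with that library alone 1. Those lower were Hsd11b2, which shields the mineralocorticoid receptor from glucocorticoids, at 29.3, 50.3 and 16.3 RPM against 1503 and 664 (-5.06 ± 0.50, limma adjusted p = 0.0031), the epithelial sodium channel subunits Scnn1b (-3.36) and Scnn1a (-1.49), and Ceacam1 (-1.32). The chloride-bicarbonate exchanger Slc26a3 was at 609, 519.5 and 517 against 70.3 and 385 (1.72 ± 0.62, adjusted p = 0.1), and the carbonic anhydrase Car1 at 1276, 3167 and 1088 against 74.3 and 1228 (2.43 ± 1.10, adjusted p = 0.17). In goblet cells Slc26a3 was 70.3 in library 1 and 385 in library 2, and 6 colonocyte genes were called higher in organoids without goblet library 2. Krt20 overlapped between groups (adjusted p = 0.45). On leaving out 1 library, the threshold was no longer passed by Scnn1b without organoid 1 (-3.53) or organoid 4 (-3.32), Scnn1a without goblet 2 (-1.36) and Ceacam1 without organoid 1 (-1.22) or goblet 1 (-1.25).

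The BMP pathway, which Noggin blocks in the medium, was mixed. Of 18 genes tested, 5 were lower and 2 higher (median -0.33); 3 were lower without goblet library 1, 2 without goblet library 2 and 0 with organoid library 1 alone. The direct target Id1 was at 66, 31.4 and 42.4 RPM against 99.6 and 122 (-1.29 ± 0.30, limma adjusted p = 0.034), Id3 at 8.11, 6.87 and 6.97 against 21.3 and 53.9 (-2.08 ± 0.37, adjusted p = 0.017) and Id4 at 3.07, 4.05 and 4.12 against 30.3 and 18.1 (-2.37 ± 0.28, adjusted p = 0.0046). The inhibitory Smad7 (-1.14) and the ligand Bmp7 (-1.64) were lower, whereas the ligands Bmp8b, at 24.9, 28.8 and 40.6 against 1.64 and 2.63 (3.36 ± 0.28, adjusted p = 0.0018), and Bmp2 (1.45) were higher. The receptor Bmpr1a (Alk3) was at 101, 117 and 149 against 93.7 and 107 (adjusted p = 0.36) and Smad4 at 132, 131 and 157 against 159 and 154 (adjusted p = 0.44); neither was called. The threshold was also missed by Id1 without organoid 4 (-1.26), goblet 1 (-1.44) or goblet 2 (-1.14), Id3 without organoid 1 (-2.14) and Smad7 without goblet 1 (-1.13) or goblet 2 (-1.14). When 1 library was left out, calls were lost for Bmp7 without goblet 2 (-1.47) and Bmp2 without organoid 1 (1.22), goblet 1 (1.31) or goblet 2 (1.58).

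Among ERK feedback genes, which respond to EGF signalling, 5 of 19 were higher and 1 lower (median 0.15), with 3 higher when either goblet library was left out. With organoid library 1 alone 1 was higher and 0 lower. The lower gene was the transcription factor Etv5, at 48.3, 48.7 and 47.6 RPM against 121 and 81.5 (-1.03 ± 0.19, limma adjusted p = 0.019); 0 were lower without organoid library 1 or goblet library 1 and 2 without goblet library 2. Epha2 was at 107, 116 and 133 RPM against 21.7 and 22.8 (2.36 ± 0.15, limma adjusted p = 0.0015), and the EGF receptor ligand Ereg at 4.52, 15.3 and 14.4 against 0.113 and 0.876 (2.95 ± 0.52, adjusted p = 0.016). Dusp4 (1.82) and Etv4 (1.43) were higher, while Dusp6 (-0.75) and Spry4 (0.16) were not called. Leaving out 1 library removed the calls for Etv5 without organoid 1 (-1.03) or goblet 1 (-0.75), Ereg without goblet 1 (2.57) or goblet 2 (3.32) and Etv4 without goblet 1 (1.32).

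Repair and fetal-like genes were partly higher. Of 19 tested, 7 were higher and 1 lower (median 0.92), with 5 to 9 higher when 1 library was left out. Msln, mesothelin, was at 46.9, 20.1 and 96.4 RPM in organoids and had 0 reads in both goblet libraries (limma adjusted p = 0.0036). Its organoid mean was 304.7 times the mean floor of 3 reads in the goblet libraries. Il1rn, the antagonist of the IL-1 receptor, was at 231, 299 and 255 against 29.9 and 43.7 (2.81 ± 0.20, adjusted p = 0.0016), and Sprr1a at 56.5, 65.9 and 96.5 against 10.8 and 9.19 (2.72 ± 0.25, adjusted p = 0.0027). Anxa1 (1.14), F3 (2.07) and the urokinase receptor Plaur (2.16) were higher too. The YAP target Ccn1 went the other way, at 3.53, 4.87 and 4.17 against 150.3 and 52.1 (-4.12 ± 0.42, adjusted p = 0.0034). Ly6a, the Sca-1 antigen of regenerating epithelium, overlapped between groups at 329.8, 287 and 466 against 478 and 97.4. With 1 library fewer, calls were no longer made for Anxa1 without organoid 4 (0.99), goblet 1 (1.19) or goblet 2 (1.10).

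NRF2 and AHR targets, which answer oxidants and aromatic compounds, were higher for 8 of 17 genes and lower for 0 (median 0.92), with 6 to 9 higher when 1 library was left out and 1 with organoid library 1 alone. The quinone reductase Nqo1 was at 69.4, 96.5 and 67.6 RPM against 14 and 22 (2.07 ± 0.25, limma adjusted p = 0.0052). The cystine transporter Slc7a11 (2.16), the haem oxygenase Hmox1 (1.63) and the glutathione transferases Gsta4 (2.71), Gsta1 (2.66) and Gsta3 (1.89) were higher as well; Gsta genes are similar in sequence and can share reads. Cyp1a1, a classic AHR target, has a row in the organoid table only, with 238, 293 and 181 reads. Of 25 cholesterol synthesis and uptake genes, 2, Lss (1.04) and Hsd17b7 (1.02), were higher, and 0 were under TMM, upper-quartile or DESeq2 scaling or with edgeR or DESeq2. Calls that did not hold with 1 library fewer were those for Gsta1 without goblet 1 (2.23), Lss without organoid 1 (0.97) or goblet 1 (0.75) and Hsd17b7 without organoid 1 (0.96), organoid 4 (0.96) or goblet 1 (0.62).

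Cell contact genes were mostly not called. Of 24 tight junction and adhesion genes 1 was higher, Cldn4, at 328, 322 and 303 RPM against 25.1 and 30.6 (3.47 ± 0.14, limma adjusted p = 0.00037). Cldn2 (adjusted p = 0.19) and Cldn15 (adjusted p = 0.85) overlapped between groups. Of 19 integrins and laminins 2 were higher, Lamc1, at 53, 69.8 and 50.9 against 5.5 and 6.69 (3.04 ± 0.21, adjusted p = 0.0015), and Lama3 (1.10), and Itga1 (-1.18) was lower. Solute carriers went both ways, with 22 of 231 higher and 17 lower (16.9% called; median 0.01, and -0.07 under TMM scaling). These counts were 10 and 10 without organoid library 1, 8 and 9 without goblet library 1, and 14 and 9 without goblet library 2. The manganese exporter Slc30a10 was at 83.6, 97.9 and 23.7 against 1.3 and 2 (4.49 ± 0.58), the bile acid transporter Slc10a2 at 18.5, 30 and 32.3 against 0 and 0.5 (4.47 ± 0.32), and the iron transporter Slc11a2 at 904, 418 and 443 against 64.5 and 42.2 (3.37 ± 0.36, adjusted p = 0.0038). In proximal goblet cells Slc10a2 stood at 8.62 and 30.5 RPM, which reached the organoid range. Slc30a10 was at 2.82 and 7.24 there and Slc11a2 at 42.1 and 43.7. Of 13 Hox genes, which record position along the gut, 0 were called by limma (median -0.04), and 0 also at an unadjusted p under 0.05, with edgeR or with DESeq2. On leaving out 1 library, the threshold was no longer passed by Lama3 without organoid 1 (1.0), goblet 1 (1.22) or goblet 2 (0.98), Itga1 without organoid 1 (-1.15), organoid 2 (-1.0), goblet 1 (-1.32) or goblet 2 (-1.04) and Slc30a10 without goblet 1 (4.30).

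Over all genes, the 12 largest increases added 6 genes outside the lists. Ly6g was at 169, 133 and 152 RPM against 7.37 and 7.94 (4.13 ± 0.16, limma adjusted p = 0.00037), while no neutrophil marker has an organoid row, so the part of such cells was not tested; Ly6 genes lie in a cluster of similar copies. Cyp2c55, a cytochrome P450, was at 1329, 1969.9 and 691 against 19.1 and 163 (4.41 ± 0.86, adjusted p = 0.021), not called by edgeR. In proximal goblet cells Cyp2c55 stood at 289 and 535 RPM, and Ly6g at 1.06 and 0.378. The adenylate kinase Ak4, at 187, 197 and 98.4 against 10.5 and 6 (4.11), the prolyl hydroxylase Egln3, at 641, 394 and 262 against 40.2 and 21.8 (3.72), and the mitophagy factor Bnip3, at 60.6, 26.7 and 44 against 3 and 1.75 (3.68), were higher, as was Syt8 (4.02). The threshold was also missed by Cyp2c55 without organoid 1 (4.35) or goblet 1 (2.90).

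The 12 largest decreases brought in 7 more genes. Mptx1, a pentraxin, was at 39.6, 0.705 and 86.7 RPM in organoids and 1603 and 6496 in goblet cells (-7.47 ± 1.59, limma adjusted p = 0.027). Organoid libraries spread widely for it, and in proximal goblet cells it stood at 62.9 and 46.4. Ccl6, a chemokine, was at 28, 8.28 and 77.5 against 1149 and 789 (-5.11 ± 0.79), the matricellular Ccn3 at 43.5, 13.3 and 130.3 against 1198 and 1660.0 (-5.01 ± 0.82), and the trypsin inhibitor Spink1 at 5.04, 0.881 and 4.92 against 124 and 129 (-4.97 ± 0.51, adjusted p = 0.0033). Plet1 (-5.03), the tryptophan-degrading Ido1 (-4.81) and the imprinted RNA Meg3 (-5.13) completed them. When 1 library was left out, calls were lost for Mptx1 without organoid 1 (-8.04), goblet 1 (-8.48) or goblet 2 (-6.46), Ccl6 without goblet 1 (-4.84) or goblet 2 (-5.38) and Ccn3 without goblet 1 (-5.25) or goblet 2 (-4.78). Leaving out 1 library removed the calls for Ido1 without organoid 1 (-4.61) and Meg3 without goblet 1 (-5.65) or goblet 2 (-4.61).

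Rows present in only 1 table were given no fold. The organoid table alone held 917 genes and the goblet table alone 537, and a missing row was not read as a low level. The highest genes with an organoid row only were Slc9a4 (12.0, 14.0 and 20.9 RPM in libraries 1, 2 and 4), Ndufa4l2 (35.5, 2.88 and 8.40), Cyp1a1, Ptgs2 (5.33, 4.35 and 30.9) and Pappa2 (12.8, 4.52 and 4.06). Among the highest with a goblet row only were Cd74, Iigp1 (306 and 3.19), Reg3b and Gbp2 (173 and 14.8).

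The same fit was run for control organoids labelled 72 h (n = 3) against proximal GWTM2 goblet cells (n = 2). Because the study describes its organoids as distal colon, colon segment may also differ between these groups and cannot be told apart from culture. This second comparison also differs from the first in labelled culture time. It shares 2 of its 3 organoid libraries with the comparison above and is no independent repeat. Its organoid libraries 2 and 4 differed from each other far less (chi-square per degree of freedom 3.3) than from library 1 (63.1 and 67.6). They were counted as separate samples, so the spread may be understated and the calls too many. Of 12396 genes tested, 1990 (16.1%) were called by limma, 883 higher in organoids (7.12%) and 1107 lower (8.93%), and the groups did not overlap for 64.2%. Proximal goblet cells held Muc2 at 9908 and 12374 RPM, Retnlb at 1942 and 521, Atoh1 at 259 and 350.2, Chgb at 54.3 and 34.4 and Slc16a3 at 3.38 and 1.45.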

How the data were processed

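RNA-seq reads were, per the labels and the study's methods, mapped uniquely to mm10 with STAR 2.5.3, and the authors deposited gene counts divided by 1 DESeq2 1.28.1 size factor per library, a signal that is computed within each table. The counting program, annotation and strand setting are not given in the sources used here. All 322038 values above 0 (100%) were within 0.1 of a whole number of reads after division by the library's step, so reads were recovered. Tables were joined on gene name and each column was scaled to a total of 1000000 over its rows with a gene name. This cancels the size factor, and values are reads per 1000000 (RPM). Rows without a gene name held up to 28.2% of a library's reads in the tables read and were left out of the total. A difference in that share between groups was not tested. Genes with a mean of at least 1 were compared on log2(value + 1) with limma 3.58.1 (R 4.3.3; empirical Bayes, trend, Benjamini-Hochberg adjustment), 3 organoid against 2 goblet libraries. Called genes had an adjusted p under 0.05 and a log2 difference of at least 1. edgeR 4.0.16, a count test on the recovered reads, called 1204 genes and DESeq2 1.42.0 called 1550. Columns of the authors' own fold changes and p-values were not used. Scripts were tested on simulated data. Gene lists and members were chosen with earlier results of these data known; cell cycle lists came from Seurat 5.3.0. The text names each list's defining genes and up to 4 others with the largest called differences, the 12 largest increases and decreases with at least 10 RPM, and the 5 highest genes of each single-table set, apart from some that are not reported here; other members named were chosen after their values were seen. Identifiers and positions are from GENCODE M21 (GRCm38) and promoters from RefSeq (GRCm38.p6).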

Additional observations from a re-analysis of the deposited data

How the results depend on the processing

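Calls between 12 h organoids and distal goblet cells (1198) fell to 790 with a pseudocount of 5 RPM and ranged from 578 to 1125 when 1 library was left out. They were 635 without organoid library 1, 578 without goblet library 1 and 760 without goblet library 2, and 209 with organoid library 1 alone, a choice made after seeing the data in which the lone organoid library is assumed to vary like the goblet pair. Fewer libraries were fitted in each of these. For 72 h organoids against proximal goblet cells (1990), a pseudocount of 5 gave 1258, and leaving out 1 library gave 1321 to 2423, with 1321 without proximal goblet library 2. Other settings (pseudocount 0.1, filters, TMM, upper-quartile or DESeq2 scaling, edgeR, unadjusted p, other deposited tables, absent rows set to 0) stayed within 1.5 times. Without adjustment 1487 genes passed; 412 of the 1169 called under TMM scaling were higher in organoids.

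The replicate block, which joins libraries of the same number, gave 960 called genes for the distal and 1846 for the proximal comparison. Those numbers only name libraries of separate experiments: deviations of organoid and distal goblet libraries numbered 1 correlated at -0.105 and those numbered 2 at 0.0104 over 12311 genes, so they were not taken as pairs. A block for sex, added after seeing the data, gave 1219 and 2028 calls, and rows filled from other tables with the same reads gave 1208 and 2013. None of the named genes that were called changed sign under any setting run. Every setting reused libraries from which the calls were made, so this was nearly fixed in advance. Of 3296 combinations of 151 named genes and a setting, 255 lost a call and 27 gained one, 70 of the losses with organoid library 1 alone. Genes near 3 reads (0.170 to 0.188 RPM) could not be ranked.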

Other observations

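The largest increases held several genes known to be induced in hypoxia, so a list of 26 such genes was written after those values were seen, and its counts are a description only. Of 24 tested, 12 were higher in organoids and 0 lower (median log2 difference 1.30), against 4.13% called higher over all genes. The 12 include Egln3, Ak4 and Bnip3, which had been seen before the list was written. Besides Egln3, Ak4 and Bnip3, which the report describes, Car9, a carbonic anhydrase, was at 242, 222 and 222 RPM in organoids 1, 2 and 4 and 42.8 and 68.1 in goblet cells 1 and 2 (2.06 ± 0.21, limma adjusted p = 0.0031). Ankrd37 was at 19.9, 20 and 20.5 against 2.38 and 2.31 (2.66 ± 0.19, adjusted p = 0.0016), Ero1l at 479, 291 and 247 against 75.7 and 62.5 (2.23 ± 0.28, adjusted p = 0.006) and the angiogenic factor Vegfa at 264, 210.4 and 175 against 80.9 and 42.3 (1.85 ± 0.30, adjusted p = 0.013). Every organoid library was above both goblet libraries for these 4 genes, and the groups did not overlap for 53.4% of all genes tested. The count of 12, and the calls of genes found only in this list, were not checked with 1 library left out. Pfkfb4 was at 27.2, 20.4 and 19.3 against 40.8 and 37.6 (-0.80), Hilpda at 10.6, 8.46 and 9.14 against 13.6 and 11.8 (-0.40) and Hk2 at 327, 322 and 210.1 against 530.2 and 195 (-0.19); none of these 3 was called. Car9, Slc2a1 and Vegfa have other known inducers.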
